A study of Mus musculus with 6 samples.

Results

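Interferon-stimulated genes were examined in adipocytes with and without PU.1, as a set of 35 genes of the 35122 in the count table. The members were listed by symbol and found through their Ensembl mouse identifiers, and all 35 were present. RNA came from adipocytes of male C57BL/6 mice, taken as the layer that floats after epididymal fat is digested with collagenase, with 1 library for each of 3 control and 3 aPU.1KO mice, numbered here within each group. Both groups were littermates homozygous for floxed PU.1 alleles (PU.1 fl/fl), in which an exon of Spi1, the gene of PU.1, lies between loxP sites. Control mice carried no Cre, whereas aPU.1KO mice also carried Cre recombinase driven by the adiponectin (Adipoq) promoter and enhancer, so that deletion was directed to adipocytes and other cells of the fat pad kept the floxed alleles. By their labels the mice were 10 to 11 months old, whereas the study's text puts them above a year.

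Type I interferons bind a receptor made of Ifnar1 and Ifnar2, whose kinases phosphorylate STAT proteins, among them Stat2. With Irf9, Stat2 forms part of the complex ISGF3, which binds the interferon-stimulated response element (ISRE) in front of its target genes. The encoded proteins sense foreign nucleic acid, block viral RNA and protein synthesis, or tune the interferon signal itself. Many of these genes are expressed at a low level in resting tissue, in adipocytes as well as in the macrophages that live among them. PU.1 is an ETS-family factor best known for its part in macrophage and B cell development, and it can bind jointly with an IRF protein at composite elements.

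Of the 35 members, 30 had a negative log2 fold change and 5 a positive one, where 48.0% of all genes tested were below 0. After adjustment edgeR's quasi-likelihood test called 0 members lower, near its 0.18% of all genes, while DESeq2 called 7 lower, against 7.87%. Oas3, Oasl1 and Oasl2, of the oligoadenylate synthetase family, were 3.85-, 2.89- and 2.51-fold higher on average in control than in aPU.1KO adipocytes, and Parp14 was 1.46-fold higher, in each case with no overlap between the mice. Of the 35, 7 were lower without overlap, a share near the 15.5% of all genes tested. Oas3 rested on 11 to 12 counts in each aPU.1KO library. Ifi27, the most abundant member, was the only one of the 35 with every aPU.1KO mouse above every control, against 16.7% of all genes tested. Ifih1, Ifit3, Ifit3b, Parp12, Parp9, Dhx58, Gbp3 and Gbp7 had log2 fold changes within 0.10 of 0. Control mouse 2 was the lowest control for 31 of the 35 members, 11 of 12 macrophage markers and 0 of 8 endothelial markers. The share over all genes was not computed.

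The sequence in front of the genes shows what many members share. Windows of 250 bases before to 50 bases after a start site were found for 25 of the 35 members in RefSeq (GRCm38.p6). Entries for Rtp4, Parp14, Ifi27, Usp18, Parp9, Mx1, Dhx58, Zbp1, Mx2 and Oas2 were not in the table used here. The ISRE core, searched as GAAANNGAAA on both strands, was in the windows of 15 of these 25 members (60.0%), against 3.99% of the 27025 genes with a window. Isg15, Oas3, Ifit1, Rsad2 and Stat2 are shown as examples from different roles, and Ifit3 and Ifit3b because they are near-identical neighbours. Capitals mark every match to the ISRE core, on either strand, and each sequence is written 5′ to 3′ along the gene's own strand. The bases before the start are shown for Isg15 and Oas3, and a stretch around the matches for the rest.
Isg15 (chr4:156200819-156201068, minus strand): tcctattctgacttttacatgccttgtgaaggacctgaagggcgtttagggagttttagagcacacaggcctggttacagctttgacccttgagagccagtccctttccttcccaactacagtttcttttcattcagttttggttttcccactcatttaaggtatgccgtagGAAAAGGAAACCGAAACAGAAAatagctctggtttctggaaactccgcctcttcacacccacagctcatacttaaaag
Oas3 (chr5:120777660-120777909, minus strand): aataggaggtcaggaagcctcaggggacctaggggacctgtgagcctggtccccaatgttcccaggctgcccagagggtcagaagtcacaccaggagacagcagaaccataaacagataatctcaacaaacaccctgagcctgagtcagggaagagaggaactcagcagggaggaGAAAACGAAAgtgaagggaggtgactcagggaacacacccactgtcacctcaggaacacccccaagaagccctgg
Ifit1 (chr19:34640760-34640838, plus strand): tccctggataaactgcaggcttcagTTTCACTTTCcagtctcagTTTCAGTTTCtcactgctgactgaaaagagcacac
Ifit3 (chr19:34583348-34583441, plus strand): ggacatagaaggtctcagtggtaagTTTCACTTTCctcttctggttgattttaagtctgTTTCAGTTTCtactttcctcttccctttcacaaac
Ifit3b (chr19:34607744-34607837, plus strand): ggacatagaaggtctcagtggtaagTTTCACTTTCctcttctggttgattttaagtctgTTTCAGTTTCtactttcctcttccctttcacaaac
Rsad2 (chr12:26456538-26456597, minus strand): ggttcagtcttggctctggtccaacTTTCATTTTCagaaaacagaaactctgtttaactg
Stat2 (chr10:128270251-128270310, plus strand): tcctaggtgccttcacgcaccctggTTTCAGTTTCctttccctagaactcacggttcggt

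Isg15 held 3 matches, each overlapping its neighbour, the last of which began 66 bases before the start. The stretches of Ifit3 and Ifit3b, each of 94 bases, differed at 0 positions. The ISRE core was also in the windows of Bst2, Ddx58, Gbp2, Gbp3, Gbp7, Ifih1, Oas1a and Trim30a. The interferon-gamma-activated site (GAS), searched as TTCNNNGAA, was in 5 of the 25 (Bst2, Gbp7, Ifi35, Ifit2 and Oas1a) against 9.55% of all genes. An ETS/IRF composite element, searched as GGAANNGAAA, was in 3 (Dtx3l, Ifi44 and Stat2, 12.0%) against 3.16%, and in Stat2 it overlapped the ISRE core shown above. A PU.1 element, searched as GAGGAAGT, was in 1 (Dtx3l, 4.00%) against 3.69%. A match describes these letters in this window and does not show that a factor is bound there.

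Total counts lay between 20550252 and 24310144 in the aPU.1KO libraries and between 22770714 and 69283842 in the control libraries, the deepest being control 1. Spi1 was measured at 24.3, 6.35 and 26.7 CPM (counts scaled to the size of the library) in control mice 1, 2 and 3 and at 3.20, 1.22 and 4.17 CPM in aPU.1KO mice 1, 2 and 3, with no overlap. All 8 adipocyte markers listed, among them Adipoq, Plin1 and Fabp4, were abundant in every library, and their summed level was 39292 to 42473 CPM in controls against 47833 to 51816 CPM in knockouts. Of the 8, 6 were higher in aPU.1KO mice without overlap, against 16.7% of all genes tested, and Lep, the leptin gene, was lower without overlap, with a log2 fold change of -0.77 (SE 0.32). Of 12 macrophage markers, 11 separated the groups without overlap, with aPU.1KO mice lower, against 15.5% of all genes tested, Cd163 being the exception, and none was at 0 in any library. Their summed level was 1762, 484 and 1689 CPM in control mice 1, 2 and 3, and 334, 208 and 313 CPM in aPU.1KO mice. All 9 progenitor and fibroblast markers had negative log2 fold changes, and summed to 1343 to 1802 CPM in controls against 732 to 1053 CPM in knockouts. The 9 markers of T and NK cells summed to 3.28 to 5.59 CPM in controls against 1.68 to 1.75 CPM in knockouts, and the 6 of B cells to 3.59 to 7.42 and 1.90 to 4.78 CPM. Neutrophil markers summed to 22.2 to 38.9 CPM in controls against 12.4 to 19.5 CPM in knockouts, and dendritic cell markers, which include the member Bst2, to 194 to 266 against 136 to 184 CPM. Only 6 of the 9 dendritic markers passed the filter on low counts. Few genes carry their sum, since 1 marker reached 9855 counts in a library and Bst2 2475. All 8 endothelial and all 6 mural markers also had negative log2 fold changes, with sums that overlapped between the groups. In bulk RNA, fewer cells of a type and less RNA per cell cannot be told apart, and the part that these markers' differences have in the results below was not tested.

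The first comparison asked how the members as a set differed between the genotypes. All 35 passed the filter on low counts, so every member was tested. With edgeR's quasi-likelihood test, 0 members were lower and 0 higher at an adjusted p under 0.05, where 0.18% of the 13925 genes tested were called lower and 0.0575% higher. The lowest edgeR adjusted p of any member was 0.0760, for Oas3. At an unadjusted p under 0.05, 14 members were lower and 1 was higher, against 13.7% and 11.9% of all genes tested. DESeq2 called 7 members lower (Oas3, Oasl1, Oasl2, Parp14, Mx1, Cmpk2 and Trim30a) and 0 higher at an adjusted p under 0.05, against 7.87% and 3.73% of all genes, and limma-voom called 0 in either direction. The groups did not overlap for 7 members that were lower in aPU.1KO mice and for 1 that was higher, against 15.5% and 16.7% of all genes. The 14 of 35 lower at an unadjusted p were thus a larger share than the background, the 7 of 35 without overlap a share near it, and no list test was made. Single mice decided these counts. Without control 2 edgeR called 9 members lower at an adjusted p under 0.05 (Herc6, Oas1a, Oas3, Oasl1, Oasl2, Zbp1, Parp14, Gbp2 and Trim30a), against 6.93% of the genes tested in that fit. Without control 1 the 14 lower at an unadjusted p became 4, against 8.1% of the genes. They became 7 without control 3 (against 10.3%), 8 without aPU.1KO 1 (11.9%), 6 without aPU.1KO 3 (14.2%), and 13 without control 2 (15.1%) or aPU.1KO 2 (14.9%).

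The median log2 fold change of the 35 members, aPU.1KO over control, was -0.40, beside 0.01 for all genes tested. It was -0.22 without control 1 and -0.57 without control 2. With RLE factors in place of TMM, Ifih1 turned from just above to just below 0, and the other 34 members kept their sign. The spread between mice was sizeable, with a median coefficient of variation of 21.1% in control and 17.1% in aPU.1KO adipocytes. Control 1 was the highest of the 6 libraries for 26 members. For 27 of the 35, control 2 was at or below the highest aPU.1KO mouse. The shares over all genes for these counts were not computed. Without control 2, which was chosen for this after the values were seen, 19 members were lower and 1 higher without overlap, against 24.1% and 24.8% of all genes. Control 2 was also the lowest control for 11 of the 12 macrophage markers, and the part of those cells in the members' levels was not tested.

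**Figure D1:**
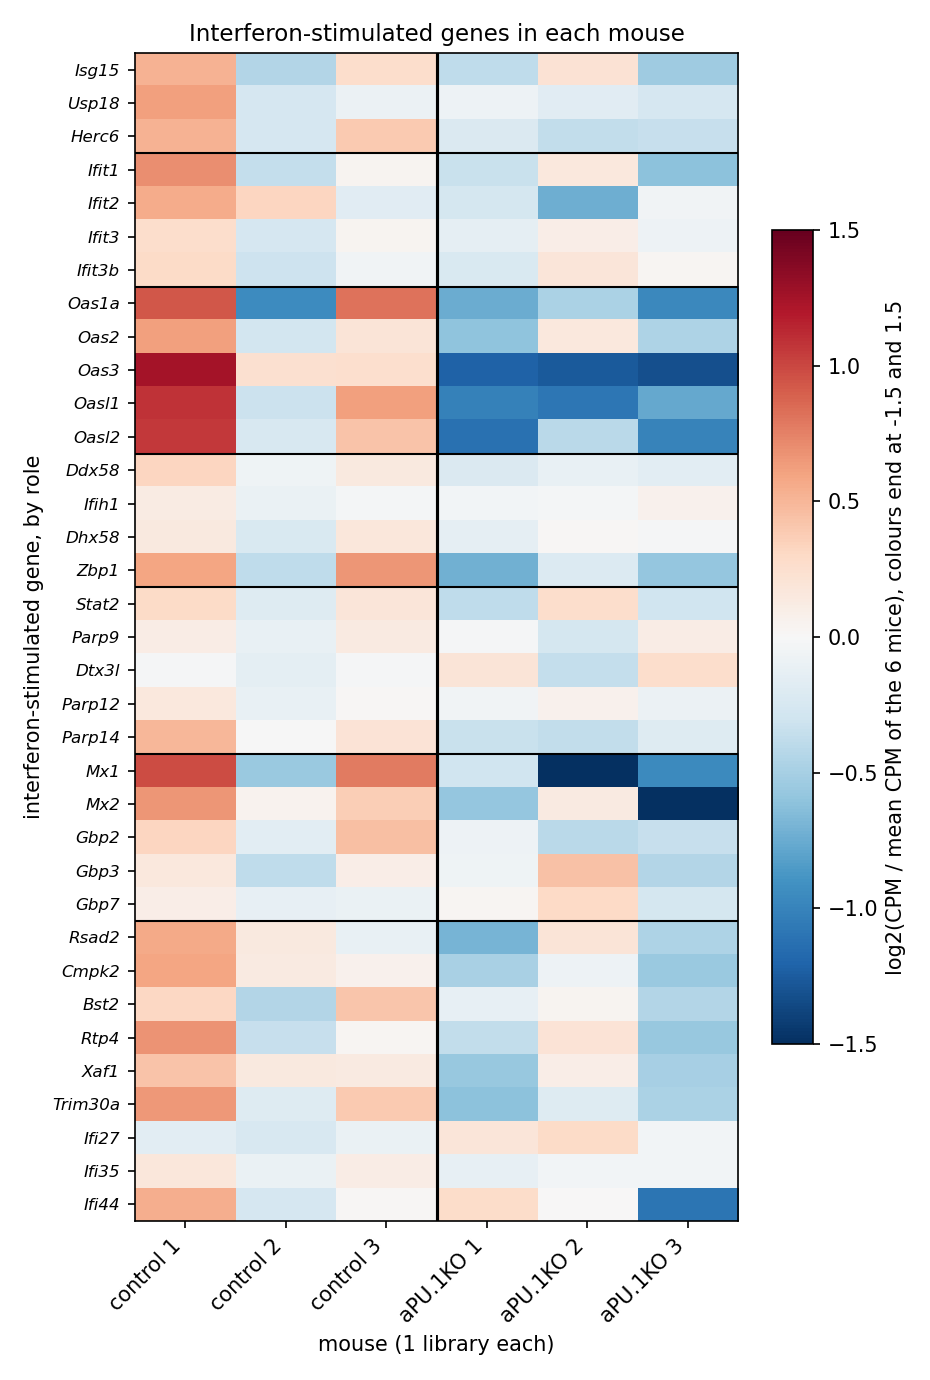
Each row is an interferon-stimulated gene, grouped by role and separated by lines, and each column is a mouse, with control mice on the left. Colour gives log2 of the mouse's CPM over the mean of the 6 mice and ends at -1.5 and 1.5. Control 1 was the highest library for 26 of 35 members and control 2 the lowest control for 31. The shares over all genes for these counts were not computed.

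**Figure D2:**
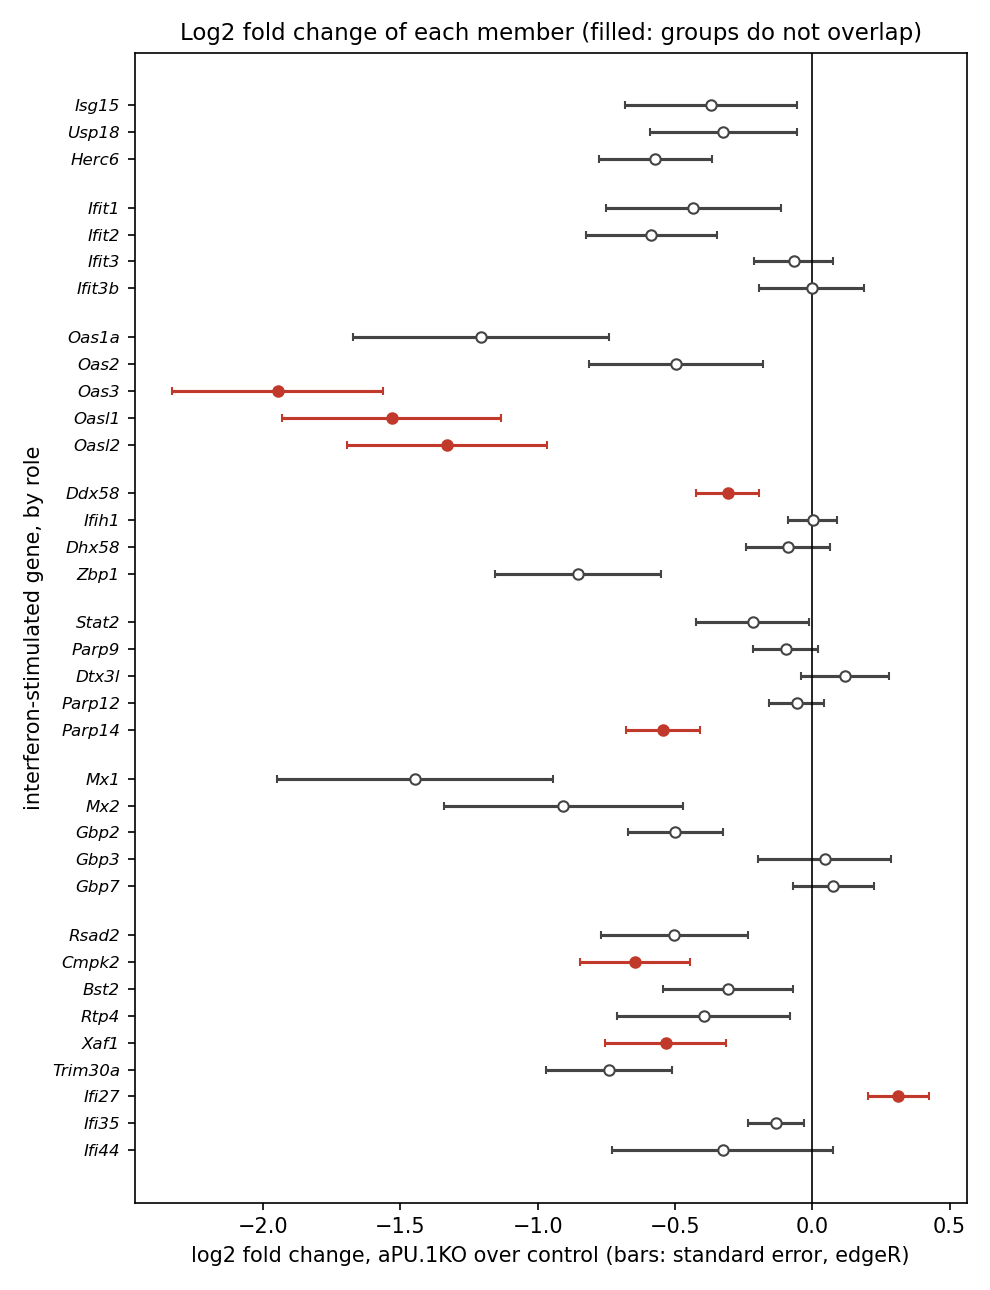
Points give the log2 fold change of each member, aPU.1KO over control, with an SE derived from edgeR's F statistic, grouped by role. Filled red points are the 8 members whose mice did not overlap between the groups, 7 lower and 1 higher, against 15.5% and 16.7% of all genes tested. Of the 35 points, 30 lie below 0, where 48.0% of all genes tested did.

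The oligoadenylate synthetases make the second messenger that switches on RNase L, and their median log2 fold change of -1.33 was the lowest of the 7 role groups. All 5 were below 0, as were 48.0% of all genes tested, and 4 were lower at an unadjusted p under 0.05, against 13.7% of all genes. Oas3 was measured at 3.10, 1.53 and 1.55 CPM in control mice and at 0.559, 0.542 and 0.521 CPM in aPU.1KO mice. The aPU.1KO mice lay close together, all well below the lowest control. Its log2 fold change was -1.95 (standard error, SE, 0.38, adjusted p = 0.0760 by edgeR's quasi-likelihood test). DESeq2 gave it an adjusted p of 0.00188, and over all alternatives that value ran from 0.00188 to 0.313. It rested on 11 to 12 counts in each aPU.1KO library, against 35 and 39 in control libraries of similar depth.

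Oasl1, a catalytically inactive relative that restrains translation of Irf7, was measured at 3.25, 1.23 and 2.34 CPM in control mice and 0.762, 0.723 and 0.900 CPM in aPU.1KO mice. The groups did not overlap, and control 2 stood nearest to the knockouts. The log2 fold change was -1.53 (SE 0.40, edgeR adjusted p = 0.0909). Oasl2, which retains synthetase activity, was measured at 13.7, 5.52 and 8.80 CPM in control mice and 3.00, 4.93 and 3.27 CPM in aPU.1KO mice. There was no overlap, although control 2 and aPU.1KO 2 lay close together. Its log2 fold change was -1.33 (SE 0.37, edgeR adjusted p = 0.0980).

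Oas1a had the highest level per kilobase of the family, with 10.1, 2.76 and 9.28 CPM in control mice and 3.15, 3.80 and 2.70 CPM in aPU.1KO mice. Control 2 lay inside the range of the aPU.1KO mice, while the other controls lay far above it. That is a log2 fold change of -1.21 (SE 0.47, edgeR adjusted p = 0.168). Without control 2 it was -1.60 with an edgeR adjusted p of 0.00945, in a range of 0.00945 to 0.494 over all alternatives. The Oas1a transcript is 97.4% identical over its whole length to that of Oas1g, so that the division of reads between them is uncertain. Oas2 had a log2 fold change of -0.50 (SE 0.32), and its groups overlapped.

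Among the genes of ISG15 conjugation, 3 of 3 had negative log2 fold changes and 1 was lower at an unadjusted p under 0.05, beside 48.0% and 13.7% of all genes. Isg15, the ubiquitin-like modifier itself, was measured at 6.56, 3.37 and 5.51 CPM in control mice and 3.51, 5.33 and 3.17 CPM in aPU.1KO mice. The groups were interleaved, with control 2 among the low libraries and aPU.1KO 2 among the high ones. By the fit the log2 fold change was -0.37 (SE 0.31, edgeR adjusted p = 0.492). Over 63.8% of its length the Isg15 transcript is 95.2% identical to a second annotated gene in the table (AC151275.1), so its counts carry that uncertainty.

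Herc6, the main ligase that attaches ISG15 in mice, was measured at 18.2, 10.7 and 16.7 CPM in control mice and 10.9, 9.81 and 9.99 CPM in aPU.1KO mice. Only control 2 reached the knockouts' range. Its log2 fold change was -0.57 (SE 0.21, edgeR adjusted p = 0.147). Usp18, the protease that removes ISG15 and dampens receptor signaling, had a log2 fold change of -0.32 (SE 0.27), with control 1 apart at 5.62 CPM and the other 5 libraries between 3.06 and 3.46 CPM.

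The Ifit proteins bind viral RNA that lacks the host's cap marks, and the 4 genes had a median log2 fold change of -0.25. Ifit2 was measured at 23.2, 19.7 and 14.0 CPM in control mice and 13.2, 9.49 and 15.3 CPM in aPU.1KO mice. Control 3, not control 2, was the low control, and aPU.1KO 3 lay above it. In the fit its log2 fold change came to -0.59 (SE 0.24, edgeR adjusted p = 0.185). Ifit3, the most highly expressed of the family per kilobase, was measured at 36.2, 25.3 and 30.9 CPM in control mice and 27.4, 32.2 and 28.7 CPM in aPU.1KO mice. All aPU.1KO mice lay within the range of the controls, with a log2 fold change of -0.07 (SE 0.14, edgeR adjusted p = 0.796). Ifit3b, whose transcript is 97.8% identical to that of Ifit3, gave -0.00 (SE 0.19), and reads of this pair may have been divided between them by the quantification. Ifit1 gave -0.43 (SE 0.32), with overlapping groups, and ran from -0.68 to -0.0986 when a mouse was left out.

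Sensors of foreign nucleic acid differed in their values. Ddx58, which encodes the RNA sensor RIG-I, was measured at 36.7, 28.1 and 32.5 CPM in control mice and 25.2, 27.1 and 26.3 CPM in aPU.1KO mice. The groups did not overlap, but control 2 and aPU.1KO 2 were separated by little. The log2 fold change was small, -0.31 (SE 0.11, edgeR adjusted p = 0.155). Ifih1, which encodes the related sensor MDA5, was measured at 37.8, 32.3 and 33.9 CPM in control mice and 33.8, 34.1 and 36.4 CPM in aPU.1KO mice. Its log2 fold change was 0.00 (SE 0.09, edgeR adjusted p = 0.990), and its sign was not stable across settings. Dhx58, whose product LGP2 regulates both, gave -0.09 (SE 0.15).

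Zbp1, a sensor of Z-form nucleic acid that can start necroptosis, was measured at 10.5, 5.34 and 11.0 CPM in control mice and 4.22, 6.01 and 4.64 CPM in aPU.1KO mice. Control 2 lay among the knockouts, and the other controls stood apart. That is a log2 fold change of -0.85 (SE 0.30, edgeR adjusted p = 0.143).

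Stat2 and the ADP-ribosylation genes had log2 fold changes from -0.54 (Parp14) to 0.12 (Dtx3l). Parp14, a mono-ADP-ribosyltransferase and the member of this set that the study names, was measured at 94.4, 66.5 and 77.3 CPM in control mice and 53.1, 51.8 and 58.7 CPM in aPU.1KO mice. The highest knockout stood below the lowest control. The mean was 79.4 ± 14.1 CPM (SD, n = 3) in control and 54.5 ± 3.68 CPM in the knockouts. By the fit the log2 fold change was -0.54 (SE 0.13, edgeR adjusted p = 0.0862), on 1044 counts or more in every library. With DESeq2 its adjusted p was 0.00958, and the range over all alternatives went from there to 0.317.

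Parp9 and Dtx3l, partners in a complex of an ADP-ribosyltransferase and a ubiquitin ligase, lie head to head next to Parp14. Parp9 was measured at 108, 93.0 and 110 CPM in control mice and 99.3, 83.3 and 108 CPM in aPU.1KO mice. The groups overlapped, and the log2 fold change was -0.10 (SE 0.12, edgeR adjusted p = 0.643). Dtx3l gave 0.12 (SE 0.16), with aPU.1KO 1 and 3 the highest of the 6 libraries and aPU.1KO 2 the lowest. Exons of this pair overlap on opposite strands over 458 bases, and whether the library kept strand is not given in the sources used here. Parp12, another mono-ADP-ribosyltransferase, gave -0.06 (SE 0.10), and Stat2, the transcription factor of ISGF3, gave -0.22 (SE 0.21).

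Of the antiviral GTPases, the Mx genes had the larger negative values. Mx1 was measured at 5.08, 1.75 and 4.40 CPM in control mice and 2.08, 0.768 and 1.33 CPM in aPU.1KO mice. Control 2 lay between aPU.1KO 1 and the other knockouts. In the fit its log2 fold change came to -1.45 (SE 0.50, edgeR adjusted p = 0.137). Mx2 gave -0.91 (SE 0.44, unadjusted p = 0.0773 by edgeR), with overlapping groups. The transcripts of Mx1 and Mx2 are 94.8% identical over 27.2% of Mx1 and 37.2% of Mx2, so their counts are not fully independent.

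Gbp2, the guanylate-binding protein gene with the highest level per kilobase, was measured at 119, 84.7 and 129 CPM in control mice and 89.6, 71.7 and 74.5 CPM in aPU.1KO mice. Control 2 lay just below aPU.1KO 1, and no other pair crossed. The log2 fold change was -0.50 (SE 0.17, edgeR adjusted p = 0.135). Its neighbours Gbp3 and Gbp7 gave 0.05 (SE 0.24) and 0.08 (SE 0.15), and in both aPU.1KO 2 was the highest of the 6 libraries.

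The remaining effectors held the only member that was higher in every aPU.1KO mouse. Cmpk2, a mitochondrial nucleotide kinase that supplies the antiviral enzyme viperin, was measured at 17.0, 12.4 and 11.8 CPM in control mice and 8.08, 10.7 and 7.67 CPM in aPU.1KO mice. There was no overlap, and the log2 fold change was -0.65 (SE 0.20, edgeR adjusted p = 0.116). Rsad2, which encodes viperin and lies beside Cmpk2, gave -0.50 (SE 0.27, unadjusted p = 0.104 by edgeR), with aPU.1KO 2 above control 2 and control 3. Xaf1, which binds the apoptosis inhibitor XIAP, was measured at 9.36, 7.70 and 7.61 CPM in control mice and 4.68, 7.46 and 4.93 CPM in aPU.1KO mice. The groups were separated only narrowly, at aPU.1KO 2, and the log2 fold change was -0.53 (SE 0.22, edgeR adjusted p = 0.186).

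Trim30a, a TRIM-family ubiquitin ligase, was measured at 21.7, 12.2 and 18.2 CPM in control mice and 9.05, 12.2 and 10.0 CPM in aPU.1KO mice. Control 2 and aPU.1KO 2 coincided, and the other mice were separated. That is a log2 fold change of -0.74 (SE 0.23, edgeR adjusted p = 0.116). Over 45.8% of its length the Trim30a transcript is 90.5% identical to that of Trim30d, so the division of reads between them is uncertain. Ifi27, a small hydrophobic protein, was measured at 528, 500 and 550 CPM in control mice and 668, 718 and 576 CPM in aPU.1KO mice. All knockouts stood above all controls, aPU.1KO 3 by the least. By the fit the log2 fold change was 0.31 (SE 0.11, edgeR adjusted p = 0.142). Bst2 (tetherin, which holds budding virus at the cell surface) gave -0.31 (SE 0.24), Rtp4 -0.40 (SE 0.31), Ifi35 -0.13 (SE 0.10) and Ifi44 -0.33 (SE 0.40), all with overlapping groups. When a mouse was left out, Rtp4 ran from -0.66 to -0.0745 and Ifi44 from -0.61 to -0.0162. Bst2 is also on the list of dendritic cell markers used here.

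**Figure D3:**
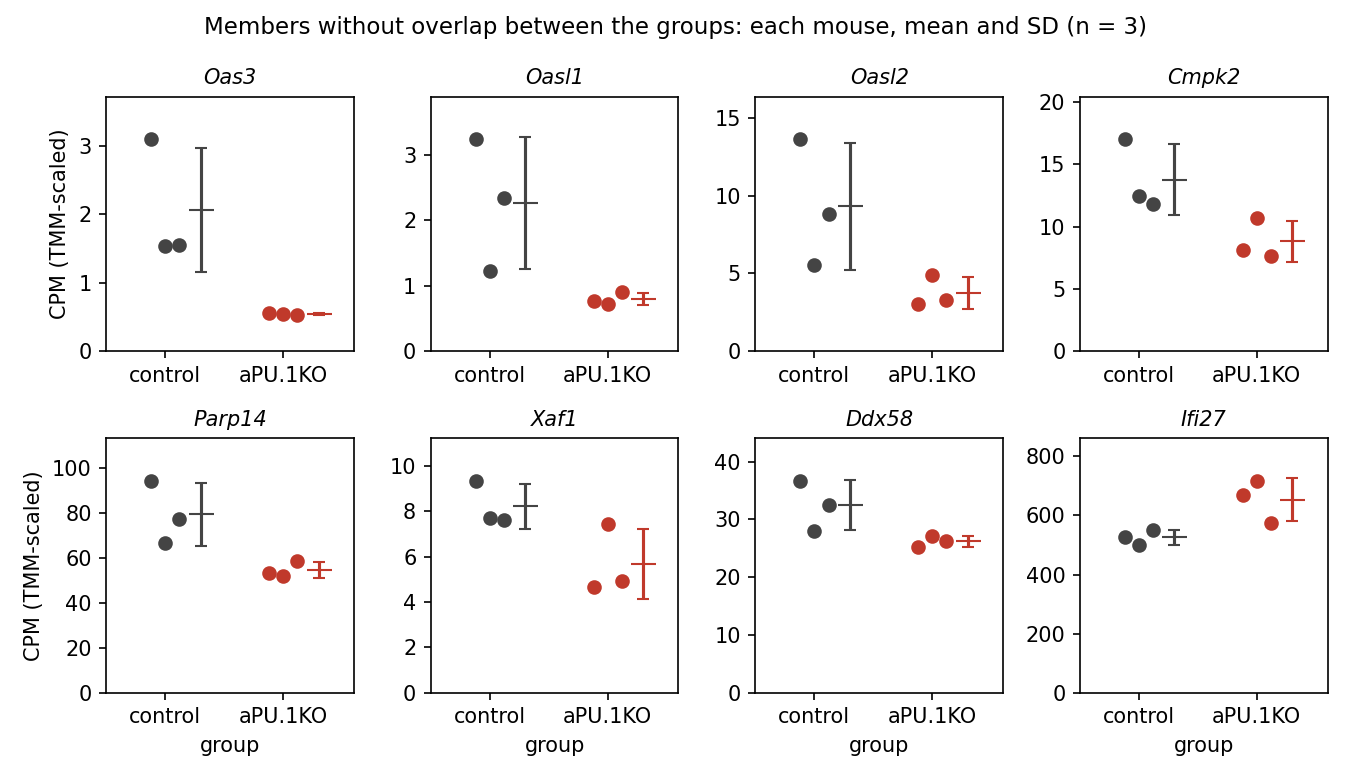
Each panel is 1 of the 8 members whose mice did not overlap between the groups, with TMM-scaled CPM on a linear axis from 0, a point for each mouse (control in grey, aPU.1KO in red) and the mean with its SD (n = 3) to the right. Of all genes tested, 15.5% were lower and 16.7% higher without overlap. Oas3 was 2.06 ± 0.900 CPM in controls and 0.541 ± 0.0191 CPM in knockouts, and Ifi27, in the last panel, ran the other way.

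Levels between members were compared per kilobase of merged exon. In control adipocytes Ifi27 stood first with 359 ± 17.1 CPM per kilobase (SD, n = 3), far above Gbp2 with 44.1 ± 9.30. Bst2 came next with 33.6 ± 9.78, and its SD range overlapped that of Gbp2, and the SD ranges of Parp9 with 21.2 ± 1.88 and Ifit3 with 17.6 ± 3.12 also overlapped. At the other end stood Oas3 with 0.291 ± 0.127 and Ifi44 with 0.310 ± 0.0893, again within each other's spread. The 8 highest members had the same order in aPU.1KO as in control adipocytes, and Oas3 was last in both.

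In the genome (GRCm38), 19 of the 35 members lie in 7 clusters with gaps below 500 kb, and the values of neighbours are given side by side. In the Ifit cluster (chromosome 19, 34550694 to 34650009) log2 fold changes went from -0.59 for Ifit2 to -0.00 for Ifit3b. Parp14, Dtx3l and Parp9 (chromosome 16, 35832874 to 35972605) gave -0.54, 0.12 and -0.10, and Gbp7, Gbp3 and Gbp2 (chromosome 3, 142530342 to 142638008) gave 0.08, 0.05 and -0.50. The cluster of Oas2, Oas3 and Oas1a (chromosome 5, 120730333 to 120907521) was negative throughout, as was the Oasl2 and Oasl1 pair elsewhere on that chromosome (114896936 to 114937915). Mx1 and Mx2 (chromosome 16, 97447035 to 97560900) and Rsad2 and Cmpk2 (chromosome 12, 26442746 to 26479837) had negative values too. Differences between neighbours were not tested.

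Upstream of these genes, the pathway was described with listed genes that are not members. The interferons themselves were barely counted, since of 21 interferon genes 18 were at 0 in all 6 libraries and no other had more than 6 counts in a library. A count of 0 in the shallowest library allows up to 3 counts, or 0.152 CPM. Of 14 genes of the receptors and signaling, 12 had negative log2 fold changes, and edgeR called 2 lower at an unadjusted p under 0.05 (Ifnar1 and Jak1), a share near the 13.7% of all genes, and 0 after adjustment. DESeq2 called 1 of the 14 (Ifnar1), near its 7.87% of all genes, and limma-voom 0. Ifnar1 was measured at 66.0, 57.7 and 64.3 CPM in control mice and 49.9, 53.3 and 52.0 CPM in aPU.1KO mice. It was 1 of 2 genes among the 14 that were lower without overlap, near the 15.5% of all genes. Its log2 fold change of -0.28 (SE 0.08, edgeR adjusted p = 0.102) compares with -0.15 (SE 0.10) for Ifnar2. Irf9, the DNA-binding partner of Stat2 in ISGF3, gave -0.18 (SE 0.21), with overlapping groups.

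The sensors and factors that induce interferon held values of both signs. Of 14 tested, 9 were below 0 and 5 above, 3 were lower (Tlr7, Tlr9 and Tmem173, the gene of STING) and 2 higher at an unadjusted p under 0.05, against 13.7% and 11.9% of all genes, and edgeR called 0 after adjustment. DESeq2 called 2 of the 14 lower (Tlr7 and Tlr9), against 7.87% of all genes. Tlr7, an endosomal receptor for single-stranded RNA, was measured at 13.9, 3.46 and 10.9 CPM in control mice and 2.08, 1.31 and 1.89 CPM in aPU.1KO mice, a log2 fold change of -2.43 (SE 0.52). Tlr9, its counterpart for DNA, gave -1.52 (SE 0.39), also without overlap. In this list 6 of 14 were lower and 2 higher without overlap, against 15.5% and 16.7% of all genes. Control 2 was the lowest control for 9 of the 14, Tlr7 among them. Irf7, the factor that amplifies interferon production, had a log2 fold change of 0.22 (SE 0.25) and overlapping groups. The genes higher at an unadjusted p, named after their values were seen, were Mavs with 0.27 and Irf3 with 0.28.

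Among 74 further interferon-stimulated genes, 66 were tested, with a median log2 fold change of -0.30 and 52 of 66 below 0, where 48.0% of all genes tested were. At an unadjusted p under 0.05, 23 were lower and 2 higher by edgeR, against 13.7% and 11.9% of all genes, and 0 were called after adjustment. DESeq2 called 18 lower among the 74, against 7.87% of all genes. Slfn2, a Schlafen-family gene, had the lowest p, with 30.2, 10.1 and 24.7 CPM in control mice and 4.22, 3.80 and 3.27 CPM in aPU.1KO mice. Its log2 fold change was -2.53 (SE 0.40, edgeR adjusted p = 0.0718). Ifi205 and Ifi207, members of the HIN-200 family of DNA-binding proteins, gave -1.18 and -1.76, and Samhd1, which degrades deoxynucleotides, gave -0.76. Epsti1 gave -1.86, Phf11b -2.12, Slfn9 -0.79, Sp100 -0.63, Gbp9 -0.61 and Mlkl -0.46, each without overlap between the groups. In the list 22 of the 66 were lower and 1 higher without overlap, against 15.5% and 16.7% of all genes. Oas1g was measured at 1.65, 0.613 and 1.78 CPM in control mice and 0.102, 0 and 0.284 CPM in aPU.1KO mice. The 2 that were higher, named after their values were seen, were Isg20 with 0.35 and Cxcl10 with 2.84. Cxcl10 was uneven, at 33.2, 139 and 2.65 CPM in aPU.1KO mice against 7.69 to 8.76 CPM in control mice.

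**Figure D4:**
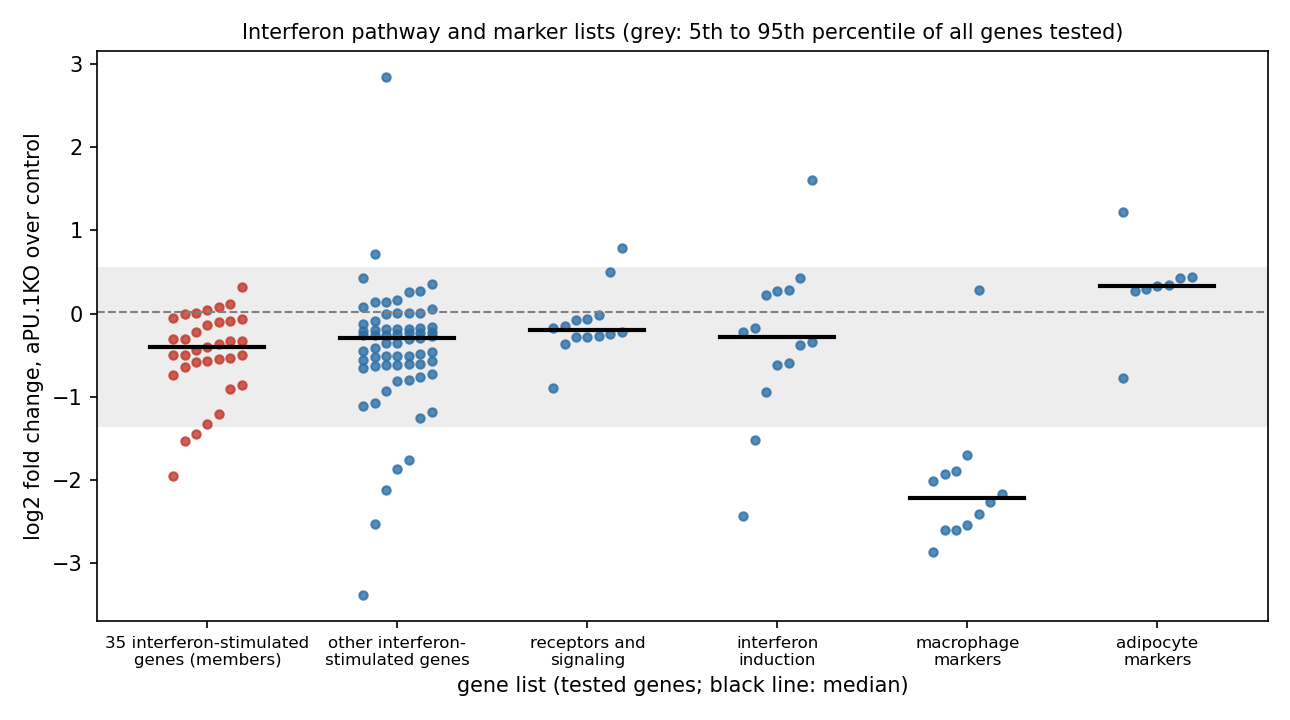
Points are the tested genes of each list and black lines their medians, on an axis of log2 fold change, aPU.1KO over control. The grey band spans the 5th to 95th percentile of all genes tested (-1.35 to 0.55) and the dashed line their median (0.01). The members lie around -0.40 and the further interferon-stimulated genes around -0.30, whereas macrophage markers lie around -2.21 and adipocyte markers around 0.33.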

How the data were processed

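RNA from epididymal adipocytes of 3 control and 3 aPU.1KO mice was sequenced with 1 library per mouse. The authors quantified the reads with Salmon, using selective mapping validation, summed transcript values to genes and deposited them as estimated counts without normalization. The submitters' processing notes name GRCm38, Salmon and FastQC, and versions, annotation and strandedness are not given in the sources used here. The deposited estimated counts are whole numbers and were used as they are. Salmon divides reads between similar transcripts. This matters for Ifit3 and Ifit3b, Oas1a and Oas1g, Mx1 and Mx2, Trim30a and Trim30d, Isg15 and AC151275.1, and Gbp7 and Gm43802.

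Symbols and coordinates were taken from a GENCODE annotation of GRCm38, which matched 35102 of 35122 genes, the other 20 holding 0.00188% of counts. Genes were filtered with filterByExpr, scaled by TMM and compared over all 13925 genes left with edgeR 4.0.16 in R 4.3.3 (glmQLFit with default options, glmQLFTest, two-sided, Benjamini-Hochberg adjustment). DESeq2 1.42.0 and limma-voom 3.58.1 were alternatives, as were RLE and upper quartile scaling, other filters, legacy = FALSE, thinning of control 1 to 22770714 counts and leaving out each mouse. CPM are counts scaled to 1000000 by TMM-corrected library size, and 3 counts were taken as the limit that a count of 0 allows. SE is the absolute log2 fold change divided by the square root of the F statistic of edgeR's test. A chi-square test of counts between libraries of a group gave at least 20.4 for each degree of freedom, so none was a duplicate. Similar transcripts were found with BLAST 2.17.0 (at least 90% identity over 10% of a transcript), and figures drawn with matplotlib 3.10.9.

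The members and all lists were chosen with earlier results of these data known. Every member is named, and values in every mouse are given for the highest member per kilobase of each role, those with an unadjusted p under 0.05 or without overlap, Parp14 and Isg15. Ifi30 was not analysed here, and the result of a listed pathway gene is not reported here. The edgeR fit of all 6 libraries was also run on simulated counts with known changes, and that outcome is not given here. With 3 mice per group and 11 to 12 counts for the weakest values, small differences cannot be resolved, and intervals of counting error do not include the spread between mice.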

Additional observations from a re-analysis of the deposited data

How the results depend on the processing

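The median log2 fold change of the members stayed negative under every alternative run, from -0.57 without control 2 to -0.22 without control 1. The count of members lower at an adjusted p under 0.05, 0 in the test as reported, was 7 by DESeq2 (against 7.87% of all genes) and ran from 0 to 9 when each mouse was left out, with 9 without control 2 (against 6.93% of all genes) and 0 without any other mouse. At an unadjusted p under 0.05 the 14 lower members became 4 to 13 when a mouse was left out (4 without control 1, 7 without control 3, 8 without aPU.1KO 1 and 6 without aPU.1KO 3, where those fits called 8.1%, 10.3%, 11.9% and 14.2% of all genes lower), and the 1 higher member became 0 to 1 (0 without control 1, control 2 or aPU.1KO 1). The 7 members lower without overlap (against 15.5% of all genes) became 19 without control 2 (against 24.1%). That setting was added once the values were known. Near 0, Ifih1 changed sign, to -0.0110 with RLE factors, -0.0161 without a filter, -0.0207 with at least 10 counts in every library, -0.0126 by DESeq2, -0.0022 by limma-voom and -0.0075 with control 1 thinned. With a mouse left out, log2 fold changes crossed 0 for Ifih1 (-0.0561 to 0.0573), Ifit3 (-0.20 to 0.0533), Ifit3b (-0.14 to 0.1621), Parp12 (-0.13 to 0.0043), Gbp3 (-0.2198 to 0.23) and Gbp7 (-0.0741 to 0.21). No other scaling moved the median of all genes by more than 0.1. The cause of these shifts was not tested. No paired analysis was possible because the labels number the mice individually and do not give their litters, so litter was not part of the fit.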
